A study of Homo sapiens with 2 samples.

Results

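HOX genes encode homeodomain transcription factors and lie in 4 clusters, HOXA, HOXB, HOXC and HOXD; the PBX and MEIS genes encode homeodomain proteins of the TALE class that bind DNA together with HOX proteins. Their expression was followed in L-540, a Hodgkin lymphoma line with T-cell features, in a culture treated with vorinostat, a hydroxamate inhibitor of histone deacetylases, and in an untreated culture of the same line. Each culture gave total RNA for 1 Affymetrix expression array of 22283 probe sets. Without replicates no test could be run, and every difference below compares these 2 arrays. Dose and duration of treatment are not in the labels. Members were selected on gene symbol and were all probe sets whose only platform gene symbol was HOXA, HOXB, HOXC, HOXD, PBX or MEIS followed by a digit, which gave 40 of the 22215 non-control probe sets, for 30 of 11963 named genes. These were 1 HOXA gene (1 probe set), 9 HOXB genes (13), 7 HOXC genes (7), 7 HOXD genes (10), 3 PBX symbols (6) and 3 MEIS symbols (3). The PBX symbols include PBX3-DT, a noncoding transcript that starts beside PBX3, and the MEIS symbols include MEIS3P1, a transcribed pseudogene. The gene families were picked from the same 2 signals and their ratio that are given below, since earlier results of these arrays were known, and silent members were set apart by those signals. Their values are therefore descriptions.

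In the embryo, HOX genes are switched on in the order in which they lie along each cluster and give cells their position along the body axis. In blood, HOXA and HOXB genes are best known from stem and progenitor cells, where their level falls as cells mature, and HOXC genes have been described in lymphoid cells. PBX proteins sharpen the DNA sequence that a HOX protein recognises, MEIS proteins join the same complexes and help PBX enter the nucleus, and Polycomb and trithorax proteins keep whole HOX clusters off or on. HOXB9 has been described as expressed in Hodgkin lymphoma cell lines.

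Signals are MAS5 intensities on a linear scale, as deposited by the authors. A floor of 68.9 signal units was used, the 40th percentile over non-control probe sets of the 2 arrays pooled. None of the 27 poly-A control probe sets reached it (highest signal 43.1). A probe set under the floor on both arrays is called silent here, which says that its signal was not told apart from dim signals and not that the gene was off. Both arrays had a trimmed mean of 500.2, and 58.8% of probe sets lay above the floor in the vorinostat array and 61.2% in the untreated array. The 18 hybridisation spike-in probe sets had log2 ratios of vorinostat over untreated between -0.28 and 0.42 (SD 0.17 over probe sets), a spread that leaves out any difference between cultures. Of 8 Hodgkin cell markers 7 were above the floor, among them TNFRSF8, which encodes CD30, while CCL17 was silent. Of 6 T cell markers 4 were above it on at least 1 array (CD2, CD3E, CD5 and CD247), with CD3D and CD7 silent. Above it among markers of other cells were 1 of 5 for B cells (PAX5), 1 of 4 for myeloid cells (CSF1R) and 2 of 5 for fibroblasts or epithelium (COL1A1 and COL1A2). Of all 11963 named genes 69.2% were above the floor on at least 1 array, and the share of T cell markers (66.7%) was close to that. Of the 7 measured Hodgkin markers TNFRSF8 (log2 ratio -1.74), BATF3 (-1.76) and STAT6 (-1.41) were at least 2-fold lower, FSCN1 (-0.77) and FUT4 (-0.62) had ratios below 0, and GATA3 (0.42) and IRF4 (0.29) had ratios above 0. Of all measured genes 5.12% were at least 2-fold lower and 53.0% had ratios below 0. The T cell marker CD247 had a ratio of -2.24, CD3E a bound of -1.01, CD5 a bound of -0.80 and CD2 a ratio of -0.54, and the B cell marker PAX5 a ratio of -1.30. CD3E and CD5 were above the floor only in the untreated array and had to be lower, and COL1A2 only in the vorinostat array and had to be higher. Of the other markers CSF1R had -0.47, COL1A1 -0.02 and COL1A2 a bound of 0.51, and the part of any of these in the HOX, PBX and MEIS values was not tested. In a bulk culture fewer cells of a kind and less RNA per cell cannot be told apart.

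Of the 40 probe sets, 21 lay above the floor on at least 1 array and 19 were silent, and of the 30 genes 15 were measured, as genes with a probe set above the floor are called here. Among the 24 HOX genes 10 were measured, namely 5 of 9 in HOXB, 4 of 7 in HOXC, 1 of 7 in HOXD and 0 of 1 in HOXA. Of all 11963 named genes 69.2% were measured. The 19 silent probe sets had signals of 1.81 to 62.7 in the vorinostat array (median 16.3) and of 1.99 to 68.4 in the untreated array (median 27.4). The silent probe set closest to the floor belonged to HOXD9, with 62.1 in the vorinostat and 68.4 in the untreated array. Just past it lay MEIS3P1, with 77.3 in the vorinostat and 60.5 in the untreated array, and MEIS1, with 61.3 in the vorinostat and 89.0 in the untreated array.

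**Figure D1:**
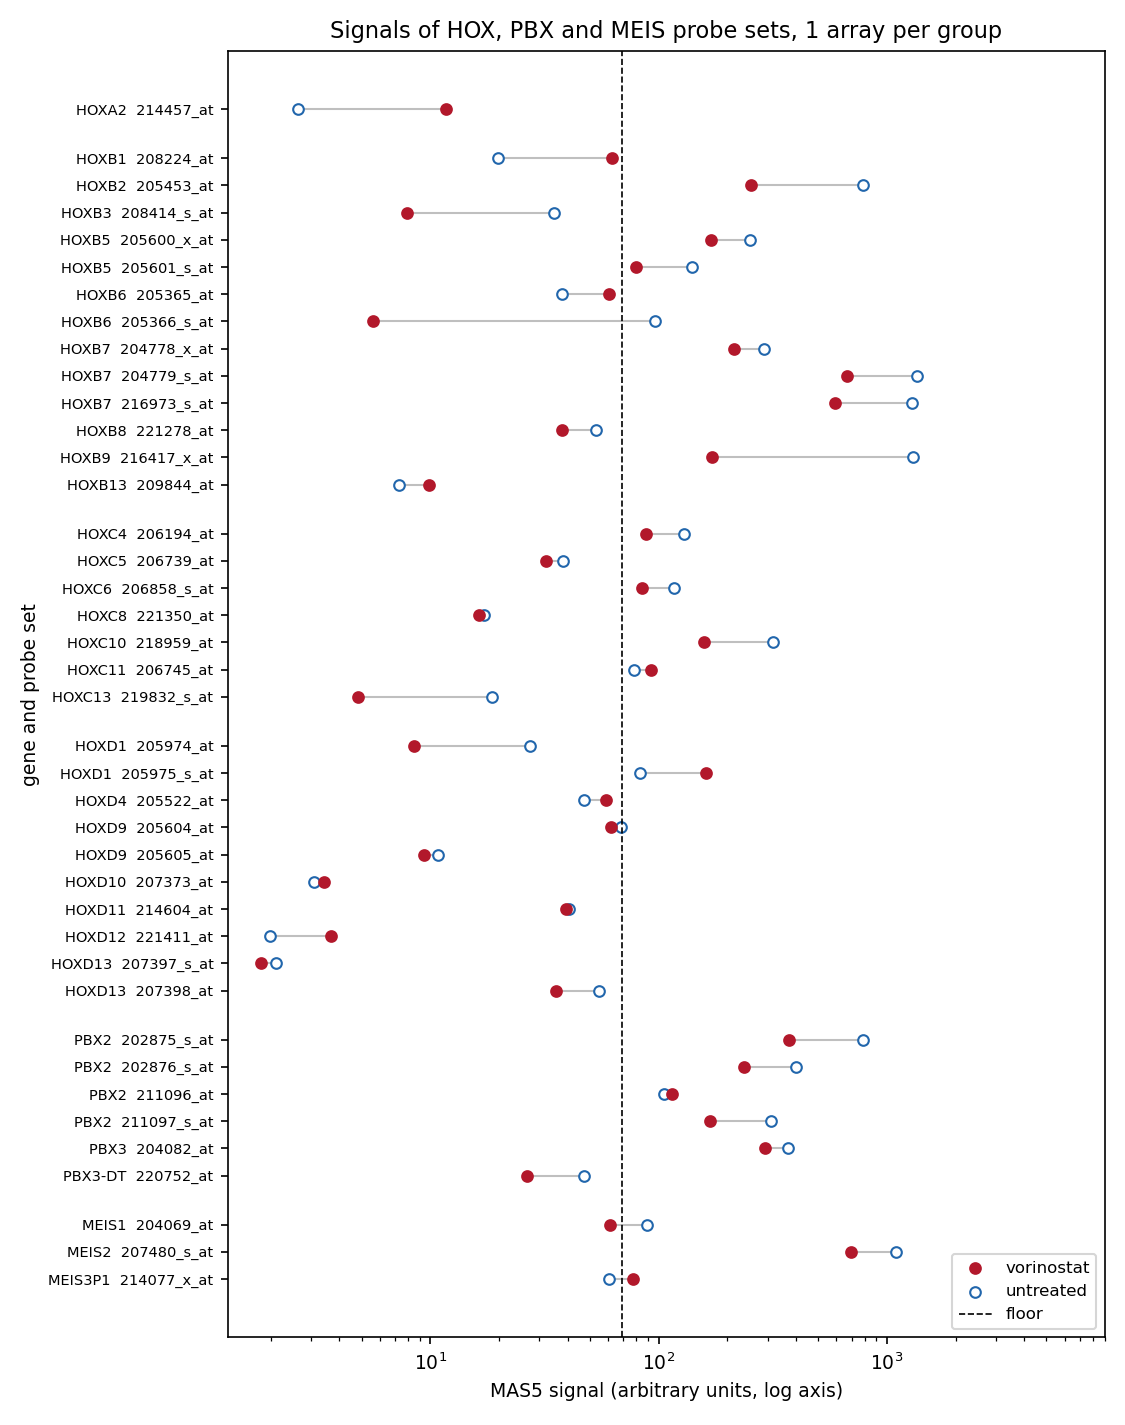
MAS5 signal (log axis) of each of the 40 probe sets in the vorinostat array (filled red points) and the untreated array (open blue points), 1 array per group, with the floor of 68.9 as a dashed line. HOXB2, HOXB7, HOXB9, PBX2 and MEIS2 have points far to the right of the floor, and 9 of 10 HOXD probe sets lie to its left on both arrays.

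The HOXB cluster held the members with the largest differences. Of its 5 measured genes 3 were at least 2-fold lower in the vorinostat array, where 5.12% of all 8277 measured genes were. All 5 had log2 ratios below 0, as 53.0% of all measured genes did, but HOXB6 was measured only through the untreated array and had to be lower. HOXB9, a gene of the cluster's late-acting end, had a signal of 172 in the vorinostat array, against 1305 in the untreated array, which is 7.61-fold lower. Its log2 ratio of -2.93 was the lowest of all 8277 measured genes. HOXB9 rests on a single probe set whose suffix marks sequence that other genes can share, and whether related transcripts add to its signal was not tested.

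HOXB2, a gene of the other end of the cluster that patterns the hindbrain, had a signal of 253 in the vorinostat array, against 783 in the untreated array. It was 3.09-fold lower, which placed it 65th from the lowest ratio among the 8277 measured genes, and its probe set carries no mark of shared sequence. HOXB7, a HOX gene that has been linked to cell growth in several cancers, had 3 measured probe sets. The brightest gave 671 in the vorinostat array and 1349 in the untreated array, the next gave 590 in the vorinostat and 1287 in the untreated array, and the dimmest gave 214 in the vorinostat and 289 in the untreated array. The signal was lower on all 3, by log2 ratios of -1.01, -1.12 and -0.43, and the gene stood at 2.01-fold lower, just past the 2-fold rule. The suffixes of all 3 mark sequence that other genes can share, and whether related transcripts add to their signals was not tested. HOXB7 was not measured without such probe sets. Scaling both arrays to the same median moved HOXB7 to a log2 ratio of -0.88, short of 2-fold, and an offset of 16 in place of the floor moved it to -0.99.

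The other measured HOXB genes were dim. HOXB5, which takes part in patterning at neck and trunk levels, had signals of 170 in the vorinostat and 252 in the untreated array on its brighter probe set, and of 79.6 in the vorinostat and 139 in the untreated array on the other. Both probe sets were lower, with log2 ratios of -0.57 and -0.81, and the suffix of each marks shared sequence. HOXB6, a gene described in early erythroid and myeloid cells, had a signal of 5.61 in the vorinostat array and 96.9 in the untreated array on its brighter probe set. That is at least 1.41-fold lower, since the vorinostat signal lay under the floor, and this gene was measured only through the array in which it was higher. Its other probe set was silent and went the other way, with 60.5 in the vorinostat and 37.7 in the untreated array, so the direction of HOXB6 rests on which probe set is read. The suffix of the brighter probe set marks shared sequence, and that of the silent one does not. HOXB1, HOXB3, HOXB8 and HOXB13 were silent, HOXB1 with signals of 62.7 in the vorinostat and 19.7 in the untreated array. HOXB1 is the gene that marks a single segment of the hindbrain in the embryo, and its value in the vorinostat array was the highest there among the silent probe sets.

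**Figure D2:**
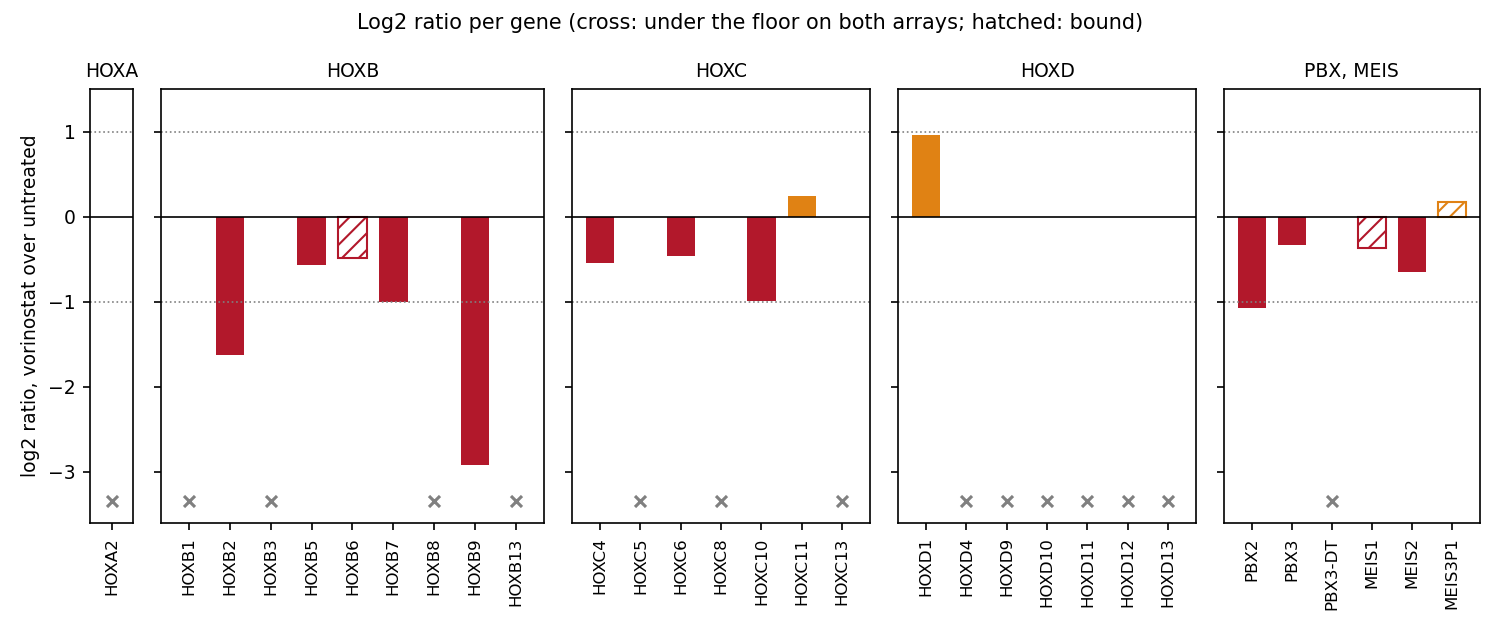
Log2 ratio of vorinostat over untreated for each gene by its representative probe set, in order of number within each cluster; bars below 0 are lower in the vorinostat array, hatched bars are bounds from a signal under the floor, crosses mark silent genes and dotted lines mark 2-fold. HOXB9 (-2.93) and HOXB2 (-1.63) reach farthest, and HOXD1 (0.96) is the highest bar.

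In the HOXC cluster 4 genes were measured, 0 of them were at least 2-fold apart and 3 were lower. Of all measured genes 5.12% were at least 2-fold lower, 3.77% were at least 2-fold higher and 53.0% had ratios below 0. HOXC10, which acts in the lower spinal cord and the hind limb, had a signal of 159 in the vorinostat array and 316 in the untreated array. Its 1.99-fold lower signal fell just short of the 2-fold rule. HOXC11, the next gene of the cluster, had 92.6 in the vorinostat and 78.3 in the untreated array, a log2 ratio of 0.24 that lies within the spread of the spike-ins. HOXC4, which has been described in lymphocytes, had 88.2 in the vorinostat array and 129 in the untreated array, and HOXC6 had 84.7 in the vorinostat and 117 in the untreated array. Their log2 ratios were -0.55 and -0.47, on signals close to the floor. The suffix of the HOXC6 probe set marks sequence that other genes can share. HOXC5, HOXC8 and HOXC13 were silent.

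HOXC4, HOXC5 and HOXC6 overlap in the RefSeq annotation and share a start there, so the probe sets of HOXC4 and HOXC6 may in part read the same transcripts. HOXC5 lies between those 2 in gene number and was silent, with 32.0 in the vorinostat and 38.0 in the untreated array. RefSeq gives HOXC4 and HOXC5 the same promoter window in GRCh38.p14, chr12:54016638-54016937 on the + strand, which is printed to show this shared start. It runs from 250 bases before the start to 50 after it, and capitals mark CCAAT on either strand, the only match among 5 motifs searched on both strands (TGATNNAT, a pattern bound by HOX with PBX; TGACAG, bound by MEIS; TATAAA, the TATA box; CCAAT; and GGGCGG, the GC box).
HOXC4 and HOXC5: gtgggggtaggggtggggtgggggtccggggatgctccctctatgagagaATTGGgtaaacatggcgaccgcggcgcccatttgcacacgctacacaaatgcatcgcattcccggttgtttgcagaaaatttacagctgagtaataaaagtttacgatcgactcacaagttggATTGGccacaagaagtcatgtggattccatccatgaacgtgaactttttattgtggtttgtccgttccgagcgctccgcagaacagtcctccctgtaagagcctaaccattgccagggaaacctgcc
The window holds 2 matches to CCAAT, which 34.6% of 35116 RefSeq promoter windows of the same length hold, and its GC content was 51.7%, against a median of 58.7% over all windows. A match is a run of letters and shows no binding.

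The HOXD genes analysed were nearly all under the floor, as was the 1 HOXA gene analysed. HOXD1, the HOXD gene with the lowest number, was the measured one, with a signal of 162 in the vorinostat array, against 83.2 in the untreated array. It was 1.94-fold higher, just under 2-fold. With the arrays scaled to equal medians, by quantiles or by loess its log2 ratio was 1.09 to 1.12, past 2-fold. Of all measured genes 3.77% were at least 2-fold higher. The second HOXD1 probe set was silent, with 8.52 in the vorinostat and 27.4 in the untreated array, so it went the other way. The suffix of the measured probe set marks sequence that other genes can share, and that of the silent one does not. HOXD1 was therefore not measured without shared-sequence probe sets, and whether related transcripts add to its signal was not tested. HOXD4, HOXD9, HOXD10, HOXD11, HOXD12 and HOXD13, the last of which shapes digits in the limb, were silent on 8 probe sets. HOXA2, the HOXA gene with a probe set of its own here, had 11.7 in the vorinostat and 2.63 in the untreated array, far under the floor; other HOXA genes were not analysed here.

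HOX genes with the same number in different clusters are paralogs, copies that arose when the clusters were duplicated. The 24 genes fell into 13 paralog groups, 10 of which had over 1 gene here. The groups hold only genes analysed here, with HOXA2 the only HOXA gene, so they are incomplete. Of the 24 HOX genes 41.7% were measured. The number of groups with exactly 1 measured gene was not compared with that expected at this share. In 7 of these 10 groups exactly 1 gene was measured, in 1 group, that of HOXB6 and HOXC6, both were, and in 2 groups all were silent. The groups with all genes silent were those of HOXB8 and HOXC8 and of HOXB13, HOXC13 and HOXD13. Among the genes analysed here, the silent partners were HOXD9 for HOXB9, HOXA2 for HOXB2, HOXD10 for HOXC10, HOXD11 for HOXC11, HOXD4 for HOXC4, HOXC5 for HOXB5 and HOXB1 for HOXD1.

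HOXD1 and HOXB1 are such a pair with 1 measured and 1 silent gene, and their promoter windows are printed to set them side by side. Both come from RefSeq, GRCh38.p14, with capitals marking any of the 5 motifs, at chr2:176188418-176188717 on the + strand for HOXD1 and at chr17:48530962-48531261 on the - strand for HOXB1.
HOXD1: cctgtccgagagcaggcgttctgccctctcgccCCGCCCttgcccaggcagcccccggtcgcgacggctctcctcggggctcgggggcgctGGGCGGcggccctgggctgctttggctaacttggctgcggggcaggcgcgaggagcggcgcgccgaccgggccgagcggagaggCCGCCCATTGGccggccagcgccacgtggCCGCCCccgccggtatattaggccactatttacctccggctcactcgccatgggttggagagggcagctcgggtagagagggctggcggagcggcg
HOXB1: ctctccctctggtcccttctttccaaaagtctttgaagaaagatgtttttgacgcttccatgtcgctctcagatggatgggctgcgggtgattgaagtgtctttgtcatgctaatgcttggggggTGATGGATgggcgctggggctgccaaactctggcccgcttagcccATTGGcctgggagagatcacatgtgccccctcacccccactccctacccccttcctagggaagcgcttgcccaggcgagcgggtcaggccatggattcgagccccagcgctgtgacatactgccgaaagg
The HOXD1 window holds 4 GC boxes (45.0% of all windows hold at least 1) and 1 CCAAT, which abuts a GC box, and its GC content was 74.3%. The HOXB1 window holds 1 CCAAT and 1 match to TGATNNAT, which 7.40% of all windows hold, and its GC content was 58.0%. In mouse, Hoxb1 is known to bind with Pbx to repeats of this kind in its own promoter.

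PBX2, a broadly expressed PBX gene that lies in the MHC region, was the cofactor gene past 2-fold, and it was measured by 4 probe sets. Its brightest probe set gave 374 in the vorinostat array, against 789 in the untreated array, which is 2.11-fold lower. The next gave 235 in the vorinostat and 398 in the untreated array, and the third gave 168 in the vorinostat and 310 in the untreated array. The fourth, whose suffix marks no shared sequence, gave 115 in the vorinostat and 106 in the untreated array. So 3 probe sets were lower, with log2 ratios of -1.08, -0.76 and -0.88, and 1 had a ratio of 0.12 within the spread of the spike-ins. These values span 1.20 log2 units, where the median span over the 2746 genes with over 1 measured probe set was 0.36. In 71.5% of those genes all probe sets went the same way. A span can only widen, and such agreement only fall, as probe sets are added. Those genes were not matched to the 4 probe sets of PBX2. Read without shared-sequence probe sets, PBX2 had the ratio of 0.12 and was not lower. With the median over its probe sets (-0.82) or equal array medians (-0.95), it was short of 2-fold.

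The RefSeq promoter window of PBX2, at chr6:32190153-32190452 on the - strand of GRCh38.p14, is shown because PBX2 was the cofactor gene past 2-fold. Capitals mark its single GC box.
PBX2: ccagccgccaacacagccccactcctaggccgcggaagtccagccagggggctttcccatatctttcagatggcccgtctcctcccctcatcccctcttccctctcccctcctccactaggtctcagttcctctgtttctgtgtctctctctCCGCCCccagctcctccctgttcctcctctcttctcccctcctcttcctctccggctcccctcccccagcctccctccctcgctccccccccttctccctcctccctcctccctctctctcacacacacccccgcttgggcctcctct
The other 4 motifs have no match in it, which says only that these letters are not in this window.

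The other cofactor genes lay within 2-fold. PBX3, a PBX gene that acts with HOXA9 in myeloid leukaemia, had a signal of 293 in the vorinostat array and 370 in the untreated array, a log2 ratio of -0.34. PBX3-DT was silent, with 26.5 in the vorinostat and 47.0 in the untreated array. MEIS2, a MEIS gene with roles in limb, heart and nervous system, had 699 in the vorinostat array and 1099 in the untreated array and was 1.57-fold lower. The suffix of its single probe set marks sequence that other genes can share. MEIS1, the partner of HOXA9 in leukaemia, had 61.3 in the vorinostat and 89.0 in the untreated array, at least 1.29-fold lower, and was measured only through the untreated array. MEIS3P1 had 77.3 in the vorinostat and 60.5 in the untreated array, at least 1.12-fold higher, on a probe set whose suffix marks shared sequence.

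**Figure D3:**
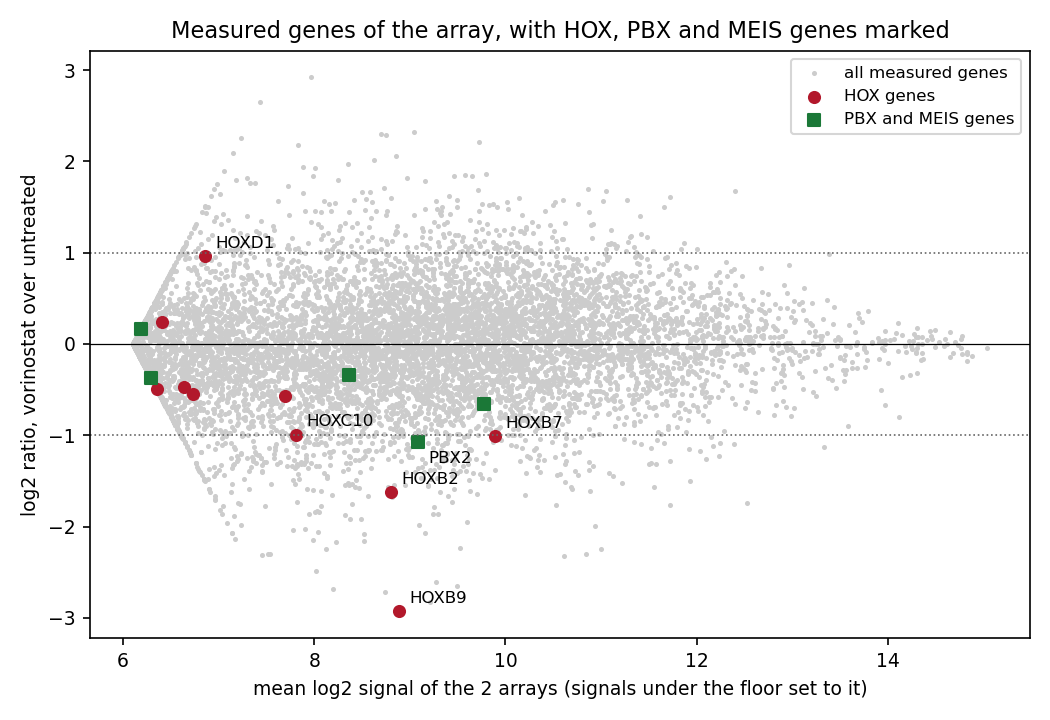
Log2 ratio of vorinostat over untreated against the mean log2 signal of both arrays for all 8277 measured genes (grey), with the 10 measured HOX genes as red circles and the 5 measured PBX and MEIS genes as green squares; dotted lines mark 2-fold. HOXB9 lies at the lower edge of all points, and several members sit at the dim left end.

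Over both groups, 4 of 15 measured members were at least 2-fold lower and 11 lay within 2-fold, with 0 higher. Of the 10 HOX genes 3 were lower, 0 higher and 7 within 2-fold, with a median log2 ratio of -0.56, and of the 5 cofactor genes 1 was lower, 0 were higher and 4 within 2-fold, with a median of -0.37. The median over all 8277 measured genes was -0.04. The log2 ratio was below 0 for 8 of 10 HOX genes and 4 of 5 cofactor genes, as it was for 53.0% of all measured genes. HOXB6 and MEIS1 entered only through the untreated array and had to be lower, and MEIS3P1 only through the vorinostat array and had to be higher. Counted by probe set, 5 of 21 measured members were at least 2-fold lower and 0 higher, where 5.47% and 3.65% of 14194 measured probe sets were lower and higher.

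The share of genes past 2-fold depended on signal level. Among the 2759 measured genes of intermediate level, which include HOXB2, HOXB9, PBX2 and PBX3, 7.36% were at least 2-fold lower, and among the 2759 brightest, which include HOXB7 and MEIS2, 3.04% were. The other 9 measured members sat among the 2759 dimmest genes, of which 4.97% were at least 2-fold lower. Scaling to equal medians moved the median of all genes from -0.04 to 0.08 and turned the split of 2-fold calls over all genes to 58.8% higher, against 42.4% as deposited. Under that scaling HOXB2 and HOXB9 were still at least 2-fold lower, HOXB7 and PBX2 were not, and HOXD1 was at least 2-fold higher.

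**Figure D4:**
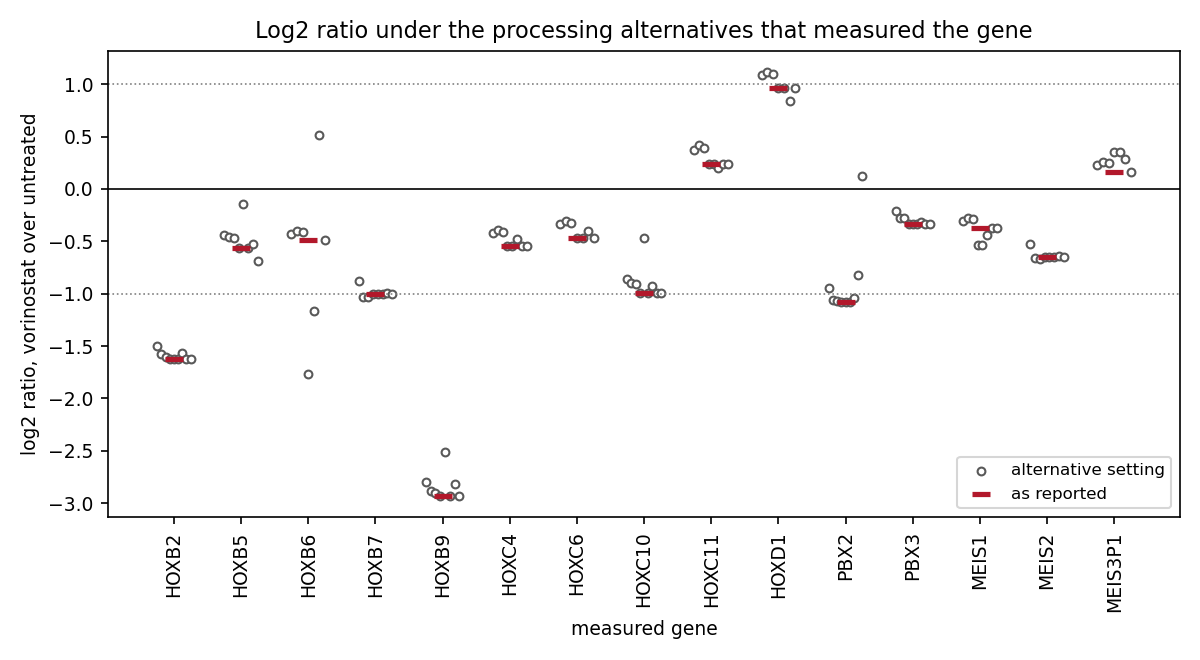
Log2 ratio of vorinostat over untreated for each of the 15 measured genes as reported (red bars) and under each alternative that measured the gene (open points); dotted lines mark 2-fold. HOXB9 stays between -2.93 and -2.51 and HOXB2 between -1.63 and -1.50, while HOXB6 and PBX2 have points on both sides of 0.

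The genes next to the clusters were read in the same way, taking the 5 protein-coding genes on each side in RefSeq order and 2 that lie inside the HOXB cluster. Of 42 such genes 33 were analysed and 29 were measured, with 2 at least 2-fold lower, 0 higher and a median log2 ratio of 0.03. Of all measured genes 5.12% were lower and 3.77% higher by this rule, with a median of -0.04. Beside the HOXB cluster 8 were measured, with a median of 0.28. UBE2Z, a ubiquitin-conjugating enzyme gene, had 2591 in the vorinostat array and 5753 in the untreated array and was 2.22-fold lower. The transcription factor gene NFE2L1 had a log2 ratio of -0.93, while the selective autophagy receptor gene CALCOCO2 (0.85), the ATP synthase subunit gene ATP5MC1 (0.79) and the heterochromatin protein gene CBX1 (0.69) had ratios above 0. SNX11 (0.28), SNF8 (0.27) and SKAP1 (-0.23) lay closer to 0, so the measured neighbours of HOXB lay on both sides of 0.

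Beside the HOXC cluster 8 neighbours were measured, with a median of -0.33. CBX5, the gene of the heterochromatin protein HP1 alpha, was 2.11-fold lower, with 217 in the vorinostat array and 460 in the untreated array, and CALCOCO1 had a log2 ratio of 0.94. ATF7 was at least 1.79-fold lower, HNRNPA1 (-0.55), COPZ1 (-0.49) and ATP5MC2 (-0.17) had ratios below 0, and NPFF (0.50) and SMUG1 (0.03) above. The 7 measured neighbours of HOXD lay between -0.53 (HNRNPA3) and 0.45 (ATP5MC3), with AGPS at 0.30, ATF2 at 0.07, MTX2 at 0.06, NFE2L2 at -0.12 and CHN1 at -0.26. The 6 of HOXA lay between -0.58 (TAX1BP1) and 0.52 (NFE2L3), with SKAP2 at 0.41, CBX3 at 0.40, HNRNPA2B1 at -0.02 and SNX10 at -0.21. EVX1, a homeobox gene at the end of the HOXA cluster, was silent, as were CREB5, COPZ2 and NFE2.

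Genes that act on HOX clusters were read from lists. Of all 8277 measured genes 5.12% were at least 2-fold lower and 3.77% at least 2-fold higher, and their median log2 ratio was -0.04. Of 23 measured Polycomb genes, which keep HOX clusters repressed, 2 were at least 2-fold higher, 0 were lower and 21 lay within 2-fold, with a median log2 ratio of -0.29. CBX7, a reader of the Polycomb mark, had 349 in the vorinostat array and 131 in the untreated array (2.66-fold higher), and EZH2, the enzyme that writes it, had 1735 in the vorinostat and 831 in the untreated array (2.09-fold higher). The suffix of the EZH2 probe set marks shared sequence. On probe sets without that mark 1 of 13 measured Polycomb genes passed 2-fold, and it was CBX7. JARID2, which helps bring EZH2 to its sites, was 1.81-fold higher and the Polycomb protein gene SCMH1 1.62-fold lower. Of 13 measured trithorax and MLL complex genes, which keep HOX clusters active, 0 passed 2-fold in either direction (median -0.12). The MLL fusion partner genes AFF1 and MLLT3 were 1.65-fold and 1.39-fold higher, and the methyltransferase gene KMT2B and the demethylase gene KDM6B were 1.34-fold and 1.29-fold lower.

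Among retinoid, CDX and other inputs to HOX genes, 1 of 7 measured genes was at least 2-fold lower and 0 were higher (median -0.78). Over all measured genes 5.12% were lower and 3.77% higher by this rule (median -0.04). RARA, a receptor for retinoic acid, which induces HOX genes of the early-acting cluster end, had a signal of 927 in the vorinostat array and 2485 in the untreated array and was 2.68-fold lower. On probe sets without a mark of shared sequence 0 of 5 measured genes of this list passed 2-fold. CTCF, which marks boundaries within HOX clusters, was 1.97-fold lower (444 in the vorinostat and 875 in the untreated array), and the retinoid receptor genes RXRB and RARG were 1.73-fold and 1.72-fold lower. CDX1, CDX2 and CDX4, homeobox genes that drive HOX expression in the embryo, were silent. Of 6 other measured TALE genes and HOX or PBX binding proteins 0 passed 2-fold (median -0.16). TGIF1 and TGIF2, TALE repressors, were 1.65-fold and 1.60-fold lower, and GMNN, whose protein geminin binds HOX and Polycomb proteins, and PBXIP1, whose protein binds PBX, were 1.41-fold and 1.36-fold higher.

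Of 13 genes described as targets of HOX or MEIS proteins in leukaemia, 9 were measured, with 2 at least 2-fold lower, 0 higher and a median of -0.46. The shares over all measured genes were 5.12% lower and 3.77% higher, with a median of -0.04. The growth factor receptor gene IGF1R had 423 in the vorinostat array and 996 in the untreated array (2.35-fold lower), and the kinase gene PIM1 had 1782 in the vorinostat and 3762 in the untreated array (2.11-fold lower). PIM1 lay within 2-fold when the arrays were scaled to equal medians. The transcription factor gene MYB was 1.76-fold lower and the cell cycle kinase gene CDK6 1.75-fold lower. KIT, SOX4, ERG and LMO2 were silent.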

How the data were processed

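Biotin-labelled RNA of 1 vorinostat-treated and 1 untreated L-540 culture was hybridised to an array each, per the labels' protocols. The deposited values are 1 intensity for every probe set, computed by the authors in MAS5 according to the submitters' processing notes. Version and scaling target are not given in the sources used here. The scaling of each array was kept. Of 22283 probe sets, 68 controls were left out; 19065 of the rest carried 1 platform symbol, 1043 several and 2107 none. All 30 member genes were found by Entrez identifier in RefSeq (GRCh38.p14), used for gene order and promoter sequences; 15 members had a promoter window there.

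Signals under the floor (40th percentile) were set to it before taking log2 ratios of vorinostat over untreated, and the probe set with the largest average log2 signal stood for its gene. No test was possible on 1 array per group, so genes at least 2-fold apart were counted. Every member above the floor was named, the 4 largest absolute ratios of each other list, and every measured cluster neighbour. The members, lists and rules were chosen with earlier results of these arrays known. The 11 alternatives covered scaling, floor, the probe set of a gene and the fold counted. The steps were tested on simulated data. Python 3.11.15, pandas 2.3.3, numpy 2.4.6 and statsmodels 0.14.6 were used. The number of arrays limits the precision.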

Additional observations from a re-analysis of the deposited data

How the results depend on the processing

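No paired analysis was possible because each group held 1 array. HOXB2 and HOXB9 were at least 2-fold lower under each alternative that measured them, between log2 ratios of -1.63 and -1.50 and of -2.93 and -2.51; HOXB9 was not measured without shared-sequence probe sets. The number of HOX genes at least 2-fold lower (3) was 1 without shared-sequence probe sets and 2 to 4 otherwise. The number higher (0) was 1 with equal medians, quantiles, loess and 1.5-fold, each time HOXD1. It was also 1 under a 25th percentile floor or with an offset of 16 added in place of the floor, each time HOXB1. Under that lower floor HOXB1 was measured only through the vorinostat array and had to be higher. For PBX and MEIS genes the number lower (1) was 0 with equal medians, the median over probe sets, no shared-sequence probe sets or 3-fold, and 2 at 1.5-fold. HOX genes above the floor (10) numbered 18 under a 25th percentile floor, 5 under a 60th percentile floor, 15 under the poly-A floor (its highest control) and 4 without shared-sequence probe sets. Leaving out shared-sequence probe sets turned PBX2 to a log2 ratio of 0.12. HOXB6 had bounds of -1.77 under the 25th percentile floor and -1.17 under the poly-A floor, and a ratio of 0.51 with the offset, which reads its other probe set. The medians of the HOX and cofactor genes, each over the genes measured in that setting, stayed below 0, from -1.01 to -0.14 and from -0.65 to -0.28. These ranges mix different sets of genes. The HOX median of -1.01 was over 5 genes, under the 60th percentile floor. That of -0.14 was over all 24, with the offset, and includes the genes called silent above.

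Genes past 2-fold in either direction were counted in the lists. The shares of all measured genes moved too, from 5.12% lower and 3.77% higher as reported. They were 15.5% and 12.7% at 1.5-fold, and 0.93% and 0.54% at 3-fold. With the 25th percentile floor they were 6.82% and 4.54%, and with the offset 5.91% and 3.94%. Across the other settings they lay between 3.89% and 5.76% lower and between 3.49% and 5.56% higher. Trithorax genes (0) numbered 1 with the floor at the 25th percentile, the offset or 1.5-fold. Polycomb genes (2) numbered 1 at the 60th percentile or without shared-sequence probe sets, 3 with the offset, 5 at 1.5-fold and 0 at 3-fold. Retinoid and CDX inputs (1) numbered 2 at the 25th percentile or the poly-A floor, 3 with the offset, 5 at 1.5-fold, and 0 without shared-sequence probe sets or at 3-fold. Other TALE genes and binding proteins (0) numbered 2 at 1.5-fold. HOX and MEIS targets (2) numbered 1 with equal medians, 3 at the 25th percentile, 4 with the offset or at 1.5-fold and 0 at 3-fold. Where fewer probe sets, a higher floor or another fold moved a count, the change follows from that setting's construction; in the other cases the cause was not tested. Signals near the floor limit HOXB6, HOXC4, HOXC6, HOXC11, HOXD1, MEIS1 and MEIS3P1.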

Other observations

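A set of 3 further probe sets carried the symbols of HOXD3, HOXD4 and an uncharacterised locus together and were left out of the counts, since none of these genes can be named from them. Their signals were 10.4, 6.19 and 4.47 in the vorinostat array and 9.99, 42.2 and 11.6 in the untreated array, all under the floor, as was the probe set of HOXD4 alone.

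Among silent members, HOXB1 had the largest signal difference in favour of the vorinostat array (62.7 against 19.7 in the untreated array). With the offset its log2 ratio was 1.14. Under the 25th percentile floor of 28.4 it had a bound of 1.14, since its untreated signal lay below that floor. There HOXB1 was measured only through the vorinostat array and had to be higher. HOXB3, silent as well, had 7.87 in the vorinostat and 34.8 in the untreated array, and a log2 ratio of -1.09 with the offset.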
